A study of Homo sapiens with 8 samples.

Results

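WNT proteins are secreted lipid-modified ligands. They bind Frizzled receptors, which span the membrane and recruit Dishevelled inside the cell. With the co-receptor LRP5 or LRP6 this stabilises β-catenin, which acts with TCF/LEF factors on target genes, while some ligands, WNT5A among them, act mainly through ROR co-receptors and the planar polarity proteins. In the early embryo WNT signalling patterns the primitive streak, from which mesoderm and definitive endoderm arise, and its inhibition favours anterior neural fate. The genes described here are 4 WNT ligands (WNT3, WNT5A, WNT5B and WNT6), 5 Frizzled receptors (FZD2, FZD3, FZD5, FZD7 and FZD8) and the co-receptor LRP6. They were taken by name from the count table, using transcripts to which the combined assembly gives a gene name. These 10 genes, of 20096 named genes with at least 1 read, had 21 such transcripts of 96614 in the table.

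The data were 8 PacBio Sequel II long-read libraries of polyadenylated RNA from H1, a human embryonic stem cell line, with 2 repeats in each of 4 groups. Undifferentiated cells (hPSC) were kept in mTeSR1 on Matrigel, and the other groups were collected after 5 days of differentiation of that line. Ectoderm medium held 15% KOSR (a serum replacement) with 2 µM each of A83-01, an inhibitor of TGF-β type I receptors, PNU-74654, an inhibitor of β-catenin binding to TCF, and Dorsomorphin, an inhibitor of BMP receptors. Endoderm medium held 0.5% FBS, 100 ng/ml Activin A and WNT3A protein at a concentration the labels write as 50 nM/ml. Mesoderm medium held 0.5% FBS, 100 ng/ml VEGF, 100 ng/ml BMP4 and 10 ng/ml bFGF, with 100 ng/ml Activin A for the first 24 hours. All groups come from 1 line, and the labels do not say whether repeats were separate cultures, so p-values measure only the spread between these libraries, which may be technical. These are bulk samples, in which fewer cells of a type and less RNA per cell cannot be told apart.

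Library totals ran from 503840 to 1180888 reads, with the 2 ectoderm libraries deepest. Reads fell on transcripts of 4406 and 4650 nt on average in the ectoderm repeats, and of 2975 to 3840 nt in the remaining 6 libraries. Markers of the labelled layer were found in ectoderm (PAX6, SIX3, LHX5, RAX) and endoderm (SOX17, GATA4, EOMES, CER1). Levels are given in CPM, a gene's reads scaled to a common library total, and the 7 ectoderm markers summed to 10.2 CPM or less in each library outside ectoderm, the 7 endoderm markers to 15.1 CPM or less outside endoderm. In the mesoderm libraries HAND1 was at 495 and 544 CPM, but TBXT had 1 and 0 reads, and MIXL1 and FOXF1 had 0 in both. PDGFRA had 8 and 15 reads there and at most 5 elsewhere. KDR went the other way, at 1.88 and 1.98 CPM in mesoderm against 110 and 78.3 CPM in hPSC. TBX6 had 6 and 3 reads in mesoderm and 3 and 6 in hPSC, and MESP1 had 0 in every library. The 8 mesoderm markers summed to 525 and 582 CPM in mesoderm, most of it HAND1. In the other libraries they summed to between 8.27 and 119 CPM. A list of 10 amnion and trophoblast genes (GABRP, IGFBP3, VTCN1, GATA3 and TFAP2A among them) summed to 6660 and 7354 CPM in mesoderm and to between 14.5 and 80.3 CPM elsewhere. Most of the mesoderm sum was GABRP, at 4272 and 4674 CPM. HLA-G, also on the list, had 0 and 1 reads in mesoderm and 0 and 5 in hPSC. The hPSC repeats differed at some genes, SOX2 being at 137 and 8.90 CPM in repeats 1 and 2.

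Promoter sequence is shown for the ligands read almost only in 1 layer, WNT3 and WNT6, and for FZD5, the receptor with the most reads in ectoderm. RefSeq's table (GRCh38.p14) held windows, of which the 250 bases before each start were used, for 6 of the 10 genes: WNT3, WNT5A, WNT5B, WNT6, FZD5 and FZD8, and 2 starts each for WNT5A and WNT5B. The runs below go 5′ to 3′ on the gene's strand and end just before the first base of the assembled transcript. They are chr17:46818750-46818942 (minus strand, 193 bases) for WNT3, chr2:218859555-218859804 (plus strand, 250 bases) for WNT6 and chr2:207769907-207770156 (minus strand, 250 bases) for FZD5. Capitals mark a match to GCCNNNGGC, the palindrome bound by TFAP2 factors.
WNT3: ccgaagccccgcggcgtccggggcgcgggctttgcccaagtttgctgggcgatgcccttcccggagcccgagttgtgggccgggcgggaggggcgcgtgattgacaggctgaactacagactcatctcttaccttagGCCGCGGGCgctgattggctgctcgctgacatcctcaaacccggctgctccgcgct
WNT6: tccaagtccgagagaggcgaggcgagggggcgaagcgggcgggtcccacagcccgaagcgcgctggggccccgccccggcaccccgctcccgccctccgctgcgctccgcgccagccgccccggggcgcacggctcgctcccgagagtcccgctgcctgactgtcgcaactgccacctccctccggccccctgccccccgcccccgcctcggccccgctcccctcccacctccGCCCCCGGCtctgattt
FZD5: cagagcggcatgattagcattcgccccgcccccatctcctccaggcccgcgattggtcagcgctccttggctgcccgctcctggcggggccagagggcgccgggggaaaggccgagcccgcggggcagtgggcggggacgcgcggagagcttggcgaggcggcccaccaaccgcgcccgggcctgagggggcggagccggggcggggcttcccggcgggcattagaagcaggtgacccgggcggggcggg

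GCCNNNGGC, which reads the same on both strands, was found in the windows of WNT3 (113 bases before the RefSeq start), WNT6 (17 bases before it), both WNT5A starts and the downstream WNT5B start, and in 19.8% of 35116 RefSeq windows. The TCF/LEF motif (CTTTGNN with A or T at both last places, either strand) was in none of the 8 windows and in 12% of all. The GATA motif (NGATAA with A or T at the start, either strand) was likewise in none of them and in 14.6% of all. A match describes these letters only.

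A coding stretch shows where FZD5, FZD7 and FZD8 are alike and where they differ. How reads were assigned between the receptors was not tested. The run below is from the GENCODE 29 coding sequence around the codons for Lys-Thr-x-x-x-Trp (capitals), the site just after the last membrane span that Dishevelled binds.
FZD5: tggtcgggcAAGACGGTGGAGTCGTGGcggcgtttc
FZD7: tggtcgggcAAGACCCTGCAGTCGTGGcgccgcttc
FZD8: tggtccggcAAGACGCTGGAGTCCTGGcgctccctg
The capitals begin at base 1573 of 1755 in the FZD5 coding sequence, 1654 of 1722 in FZD7 and 1822 of 2082 in FZD8. FZD2, not printed, has the site as well, at base 1627 of 1695. Over FZD2, FZD3, FZD5, FZD7 and FZD8, the longest coding run that any pair shared exactly was 69 nt, between FZD2 and FZD7, whose assembled transcripts were 3849 and 4603 nt long. Between the ligands it was 35 nt, for WNT5A and WNT5B.

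Of the 10 genes, 7 passed the filter on low counts (10840 genes passed in all), and WNT5A, WNT5B and FZD8 did not. A gene that passed through the 1 group in which it was high had to differ, so counts of calls over these genes describe them and carry no further weight. The same holds for the p-value of any single such gene, member or not, with WNT3, WNT6, WNT11, LGR5, AXIN2 and DKK1 among them. Against hPSC, 4 of the 6 genes with reads in either group were higher in ectoderm and 1 was lower, beside 48.7% of all tested genes called (23.8% higher, 24.8% lower). In endoderm 2 of 6 were higher and 0 lower, beside 27.2% called (13.5% higher, 13.8% lower). In mesoderm 2 of 7 were higher and 2 lower, beside 35.1% called (16.9% higher, 18.2% lower). A call is a Benjamini-Hochberg adjusted p under 0.05 in edgeR's quasi-likelihood test over all tested genes, and all adjusted p-values below are from that test unless another is named. The 3 comparisons share the hPSC libraries. Among genes with a mean transcript length of 5000 nt or more, 43.8% were called higher in ectoderm.

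**Figure D1:**
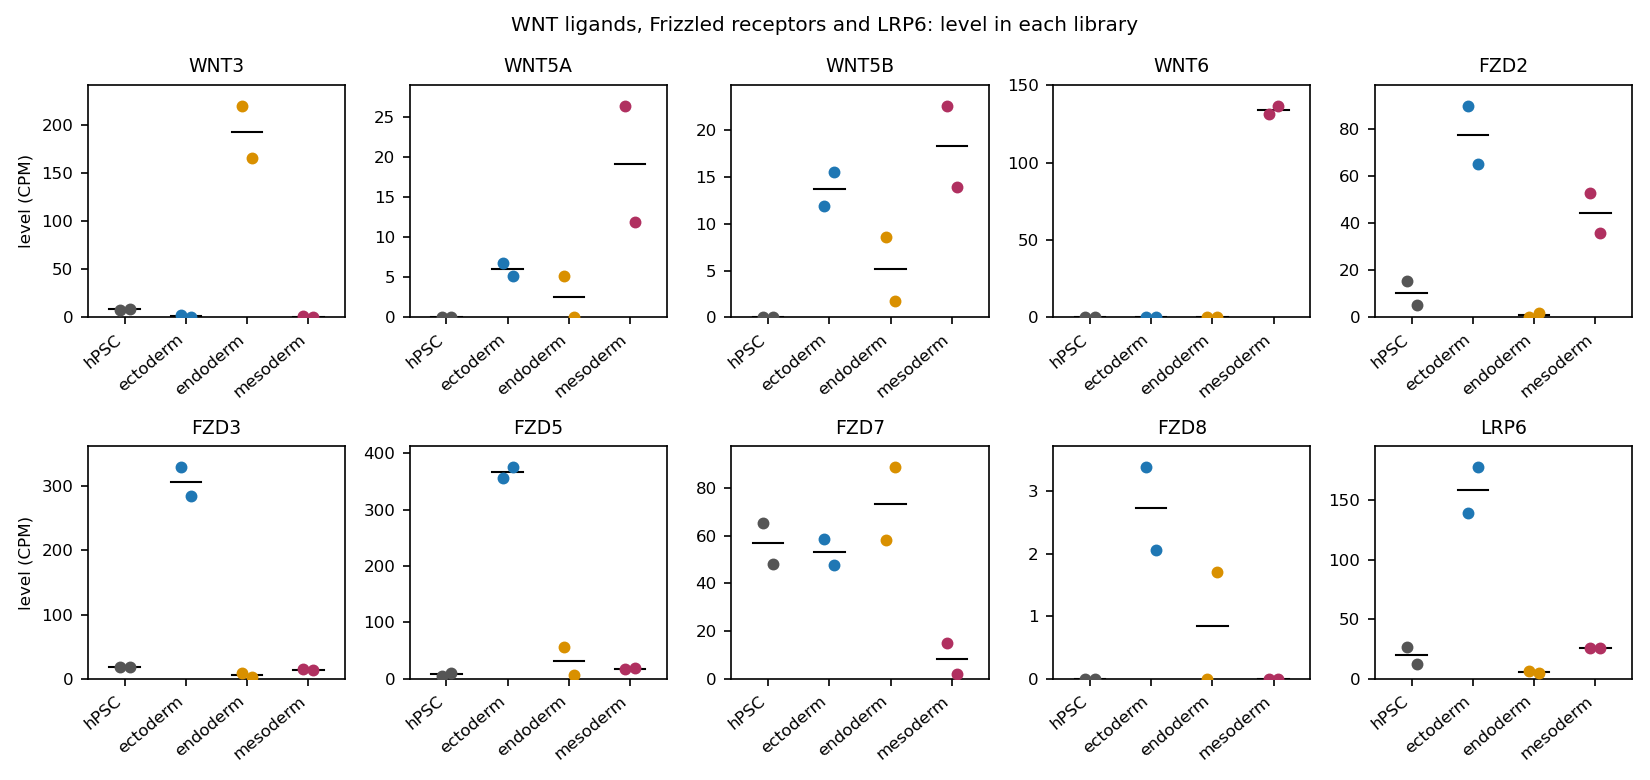
Level of each gene in CPM (vertical axis, from 0, with its own scale per panel) in each of the 8 libraries (points), with the group mean as a bar. WNT3 stands out in endoderm, WNT6 in mesoderm, and FZD3, FZD5 and LRP6 in ectoderm, while FZD7 is low only in mesoderm.

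Among the ligands, WNT3, which is needed in the mouse embryo to form the primitive streak, was read mainly in endoderm (chromosome 17, 46762268 to 46833105, minus strand). Its level was 220 and 165 CPM in the endoderm repeats (129 and 97 reads), 7.70 and 8.90 CPM in hPSC, 2.54 and 0 CPM in ectoderm, and 1.88 and 0 CPM in mesoderm. Both endoderm values lay far above the other 6 libraries, and both hPSC values lay above those of ectoderm and mesoderm. WNT3 rose from a mean of 8.30 CPM in hPSC to 193 ± 38.8 CPM (SD, n = 2) in endoderm, a log2 fold change of 4.84 ± 0.47 (SE) with adjusted p = 3.42e-06. WNT3 passed the filter on low counts through endoderm alone, so endoderm had to differ and this p-value adds no weight. WNT3 fell by 2.83 on the log2 scale in ectoderm (SE 0.87, adjusted p = 0.0136) and by 3.11 in mesoderm (SE 1.12, adjusted p = 0.0415). Those last 2 calls rest on 9 hPSC reads against 3 and 1, and hPSC itself lay near the level of 3 reads (5.78 and 5.34 CPM). Without hPSC repeat 2 the adjusted p was 0.0595 in ectoderm and 0.101 in mesoderm, without ectoderm repeat 2 it was 0.101 in ectoderm (log2 fold change −1.88, and −5.40 without ectoderm repeat 1), and without mesoderm repeat 1 or 2 it was 0.0764 or 0.232 in mesoderm (−5.65 or −2.19).

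Of the 4 assembled WNT3 transcripts, the 5-exon one matching ENST00000225512 held 96.5% of the pooled endoderm reads (95% Clopper-Pearson interval 93.1 to 98.5). It began 57 bases upstream of the RefSeq start, at the 3′ end of the window printed for WNT3. The other 3 had at most 3 reads in any library. This and later intervals cover counting error only.

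WNT6, a ligand known from surface ectoderm, was read in mesoderm only (chromosome 2, 218859805 to 218874233, plus strand). It had 70 and 69 reads there, or 132 and 137 CPM, and 0 reads in each of the other 6 libraries. Against the level of 3 reads in an hPSC library this is at least 23.3-fold higher than hPSC, with adjusted p = 4.42e-06. WNT6 passed the filter on low counts through mesoderm alone, so it had to differ and this p-value adds no weight. By the same floor it was at least 43.3-fold above ectoderm and at least 26.2-fold above endoderm. All 139 reads fell on the 4-exon transcript matching ENST00000233948, which begins at the RefSeq start. The amnion and trophoblast list, given above, was high in the same libraries, TFAP2A being at 256 and 329 CPM in mesoderm and 0 in both hPSC libraries. Of the mesoderm markers HAND1 was high, TBXT, MIXL1 and FOXF1 were at or near 0, and KDR was below its hPSC level. The part of the cell types present in the WNT6 level was not tested.

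WNT5A, the best known ligand of the ROR and planar polarity branch, was low in all groups and highest in mesoderm (chromosome 3, 55465715 to 55487306, minus strand). It had 14 and 6 reads in mesoderm (26.4 and 11.9 CPM), 8 and 5 in ectoderm (6.77 and 5.17 CPM), 3 and 0 in endoderm, and 0 in both hPSC libraries. Mesoderm was at least 3.31-fold and ectoderm at least 1.03-fold above the hPSC floor. The mesoderm repeats lay above all other libraries, but differed from each other by more than the ectoderm repeats did. Fitted with no filter on low counts, WNT5A was called higher than hPSC in mesoderm (adjusted p = 0.00016) and in ectoderm (adjusted p = 0.0305). It was not called in endoderm (adjusted p = 0.232). Adjusted p-values of that fit, here and below, are not on the scale of the others. For FZD3 in ectoderm against hPSC it gave 2.32e-18 where the filtered fit gave 2.9e-06. For LRP6 in endoderm against mesoderm it gave 0.0735 where the filtered fit gave 0.0313. Of the 2 RefSeq starts only the upstream one was used, and no assembled transcript began within 1000 bases of the downstream one.

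WNT5B, its close paralogue, was read at a similar order of magnitude (chromosome 12, 1607397 to 1652696, plus strand). It had 12 and 7 reads in mesoderm (22.6 and 13.9 CPM), 14 and 15 in ectoderm (11.9 and 15.5 CPM), 5 and 1 in endoderm (8.54 and 1.71 CPM) and 0 in both hPSC libraries. The mesoderm and ectoderm ranges overlapped, and both lay above endoderm. Mesoderm was at least 3.16-fold and ectoderm at least 2.37-fold above the hPSC floor. With no filter the adjusted p against hPSC was 0.000172 in mesoderm, 0.000451 in ectoderm and 0.0391 in endoderm, on the scale of that fit. Of the 5 transcripts, a single-exon one of 10260 nt that overlaps an intron held 41.4% (23.5 to 61.1) of the pooled ectoderm reads and 5.26% (0.133 to 26.0) of the mesoderm reads. The 2 intervals overlap slightly.

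**Figure D2:**
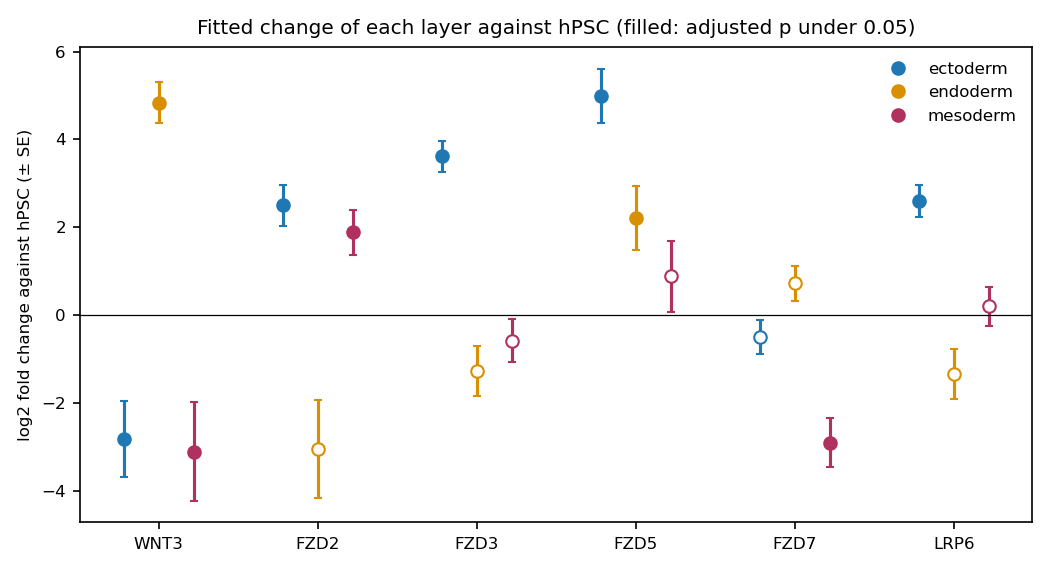
Fitted log2 fold change of each layer against hPSC (vertical axis) with its standard error as bars, for the 6 tested genes with hPSC reads; filled points have an adjusted p under 0.05. WNT6 is left out because hPSC had 0 reads, and the 3 comparisons share the hPSC libraries.

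The Frizzled genes divided by layer. FZD5, a receptor for WNT5A and for β-catenin signalling with a known role in the eye field, had the most reads of the 5 in ectoderm (chromosome 2, 207762586 to 207769906, minus strand). It was at 357 and 375 CPM in ectoderm (421 and 363 reads), 5.78 and 10.7 CPM in hPSC, 56.4 and 6.82 CPM in endoderm, and 16.9 and 19.8 CPM in mesoderm. The ectoderm repeats lay close together and far above all other libraries. FZD5 rose by 5.00 ± 0.62 log2 units against hPSC (adjusted p = 2.18e-05), by 2.78 ± 0.50 against endoderm (adjusted p = 0.000203) and by 4.11 ± 0.55 against mesoderm (adjusted p = 4.21e-05). In order of mean level came ectoderm, endoderm, mesoderm and hPSC. Endoderm and mesoderm did not pass the test (1.33 ± 0.64, adjusted p = 0.0978), nor did mesoderm and hPSC (adjusted p = 0.415). Endoderm did pass as higher than mesoderm with the length trend removed (adjusted p = 0.0203), with no filter (0.0257), with only those 2 groups fitted (0.0269) and without endoderm repeat 2 (0.00637), while without endoderm repeat 1 the difference was −0.79.

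The FZD5 call in endoderm (log2 fold change 2.21 ± 0.73, adjusted p = 0.0337) came from repeat 1, since repeat 2 lay between the 2 hPSC values. Without endoderm repeat 1 the log2 fold change was 0.16 and the adjusted p 0.924, and without repeat 2 it was 3.11. The difference of ectoderm from endoderm was 4.97 without endoderm repeat 1 and 2.02 without repeat 2. That of ectoderm from hPSC was 4.50 without hPSC repeat 1 and 5.74 without hPSC repeat 2. SOX17, an endoderm factor, differed between the endoderm repeats as well, at 256 and 27.3 CPM. Its part in the FZD5 difference was not tested.

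FZD3, a receptor known for axon guidance and neural tube closure, was the other receptor with many ectoderm reads (chromosome 8, plus strand). It was at 329 and 284 CPM in ectoderm (389 and 275 reads), 19.3 and 17.8 CPM in hPSC, 15.1 and 13.9 CPM in mesoderm, and 8.54 and 3.41 CPM in endoderm. Only ectoderm stood apart: FZD3 rose by 3.61 ± 0.36 log2 units against hPSC (adjusted p = 2.9e-06). The differences of endoderm (−1.28 ± 0.56) and mesoderm (−0.58 ± 0.48) from hPSC did not pass (adjusted p = 0.105 and 0.371).

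The FZD3 transcripts are long, at a mean of 13426 nt, and 2 of the 3 differ by exon 2, of 46 nt, which lies before the coding start. The transcript with the exon (ENST00000240093) had 121 and 84 ectoderm reads and 7 and 5 hPSC reads, and the one without it (ENST00000537916) had 256 and 185 ectoderm reads and 3 and 3 hPSC reads. The transcript without exon 2 held 66.4% (62.7 to 70.0) of pooled FZD3 reads in ectoderm and 30% (11.9 to 54.3) in hPSC. In mesoderm its share was 40% (16.3 to 67.7) of 15 reads. Transcript choice was tested with edgeR (diffSpliceDGE) in 2638 genes. For ectoderm against hPSC it gave an adjusted p of 0.119 for FZD3, so the shift did not pass, beside 5.84% of those genes that did. FZD3 did not pass in endoderm (adjusted p = 0.995, beside 4.97% called) or mesoderm (adjusted p = 0.829, beside 6.97% called) either, at 7 and 15 reads.

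FZD2, a receptor of both branches, was read in ectoderm and mesoderm and almost not in endoderm (chromosome 17, 44557411 to 44561259, plus strand). It was at 89.8 and 65.1 CPM in ectoderm, 52.7 and 35.7 CPM in mesoderm, 15.4 and 5.34 CPM in hPSC, and had 0 and 1 reads in endoderm. Neither ectoderm nor mesoderm overlapped hPSC. FZD2 rose by 2.50 ± 0.47 log2 units in ectoderm (adjusted p = 0.000579) and by 1.88 ± 0.52 in mesoderm (adjusted p = 0.0111). Ectoderm and mesoderm did not pass the test against each other (0.62 ± 0.36, adjusted p = 0.201), and endoderm against hPSC missed it (−3.05 ± 1.11, adjusted p = 0.0525). The mesoderm call was lost with DESeq2's Wald test (adjusted p = 0.0502) and without mesoderm repeat 1 (adjusted p = 0.0964). The endoderm difference was −3.49 without hPSC repeat 2 and −2.30 without hPSC repeat 1. It was −2.05 without endoderm repeat 1 and −5.98 without endoderm repeat 2. Without hPSC repeat 1 the rise was 3.25 in ectoderm and 2.63 in mesoderm, and without hPSC repeat 2 it was 2.13 and 1.44.

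FZD7, the Frizzled long associated with undifferentiated pluripotent cells, had another order (chromosome 2, 202033839 to 202038441, plus strand). It was at 65.5 and 48.0 CPM in hPSC, 58.4 and 47.6 CPM in ectoderm, 58.1 and 88.7 CPM in endoderm, and 15.1 and 1.98 CPM in mesoderm. The hPSC, ectoderm and endoderm ranges overlapped and mesoderm lay below all of them. FZD7 fell by 2.90 log2 units in mesoderm (SE 0.56, adjusted p = 0.000928). The difference was −4.86 without mesoderm repeat 1 and −2.05 without repeat 2. The fitted differences from hPSC of −0.51 ± 0.39 in ectoderm and 0.72 ± 0.40 in endoderm did not pass (adjusted p = 0.298 and 0.195).

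FZD8 was barely read, with 4 and 2 reads in ectoderm, 0 and 1 in endoderm and 0 in the other 4 libraries (chromosome 10, 35636387 to 35641637, minus strand). No difference was detectable at this depth.

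LRP6, the co-receptor that is phosphorylated when a WNT joins it to a Frizzled, was higher in ectoderm (chromosome 12, 12116025 to 12267044, minus strand). It was at 140 and 178 CPM in ectoderm (165 and 172 reads), 27 and 12.5 CPM in hPSC, 26.4 and 25.8 CPM in mesoderm, and 6.83 and 5.12 CPM in endoderm. The mesoderm values lay within the hPSC range, and endoderm lay below it. LRP6 rose by 2.60 ± 0.36 log2 units in ectoderm (adjusted p = 5.4e-05), while endoderm (−1.34 ± 0.57, adjusted p = 0.095) and mesoderm (0.20 ± 0.44, adjusted p = 0.756) did not pass. The endoderm difference was −1.66 without hPSC repeat 2 and −0.86 without hPSC repeat 1. Its full-length 23-exon transcript held 96.1% (93.5 to 97.9) of pooled ectoderm reads and 63.0% (42.4 to 80.6) of the 27 mesoderm reads, the rest being 2 shorter transcripts from the 5′ part of the gene. The mesoderm repeats differed, at 78.6% and 46.2%, and transcript choice was not tested for LRP6. BCL2L14, which overlaps LRP6 on the other strand, had at most 3 reads in any library.

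Between layers, 4 of 6 genes were higher and 2 lower in ectoderm than in endoderm, beside 63.1% of all tested genes called (33.1% higher, 30% lower). Against mesoderm 4 of 7 were higher in ectoderm and 1 lower, beside 35.4% called (18.2% higher, 17.3% lower). In endoderm 2 of 7 were higher and 3 lower than in mesoderm, beside 47.1% called (23.3% higher, 23.9% lower). Among genes with a mean transcript length of 5000 nt or more, 52.3% were higher and 12.1% lower in ectoderm than in endoderm. Against mesoderm 29.8% of these long genes were higher and 9.59% lower in ectoderm, and 12.3% were higher and 31.5% lower in endoderm. FZD2 was at 77.4 ± 17.4 CPM in ectoderm and 44.2 ± 12 CPM in mesoderm (SD, n = 2) against 0.853 ± 1.21 CPM in endoderm. Its log2 difference was 5.55 ± 0.76 for ectoderm over endoderm (adjusted p = 1.82e-05), and endoderm fell below mesoderm by 4.93 ± 0.84 (adjusted p = 0.000276). With 0 and 1 endoderm reads these sizes are loose: without endoderm repeat 1 or 2 the first was 4.67 or 8.60 and the second −3.98 or −7.91. FZD7 was called lower in ectoderm than in endoderm (−1.23 ± 0.38, adjusted p = 0.0103), but not without ectoderm repeat 1, ectoderm repeat 2 or endoderm repeat 2 (adjusted p = 0.0618, 0.139 and 0.194). It was called higher in ectoderm than in mesoderm (2.40 ± 0.54, adjusted p = 0.003), but not without mesoderm repeat 2 (1.67, adjusted p = 0.0559), and at 4.49 without mesoderm repeat 1. LRP6 was called lower in endoderm than in mesoderm (−1.54 ± 0.55, adjusted p = 0.0313), but not with any 1 of the 4 libraries left out (adjusted p 0.0916 to 0.155). That call was also lost with the length trend removed (−0.76, adjusted p = 0.283), with reference transcripts only (−0.95, adjusted p = 0.219), with DESeq2 (adjusted p = 0.113) and with no filter (adjusted p = 0.0735).

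**Figure D3:**
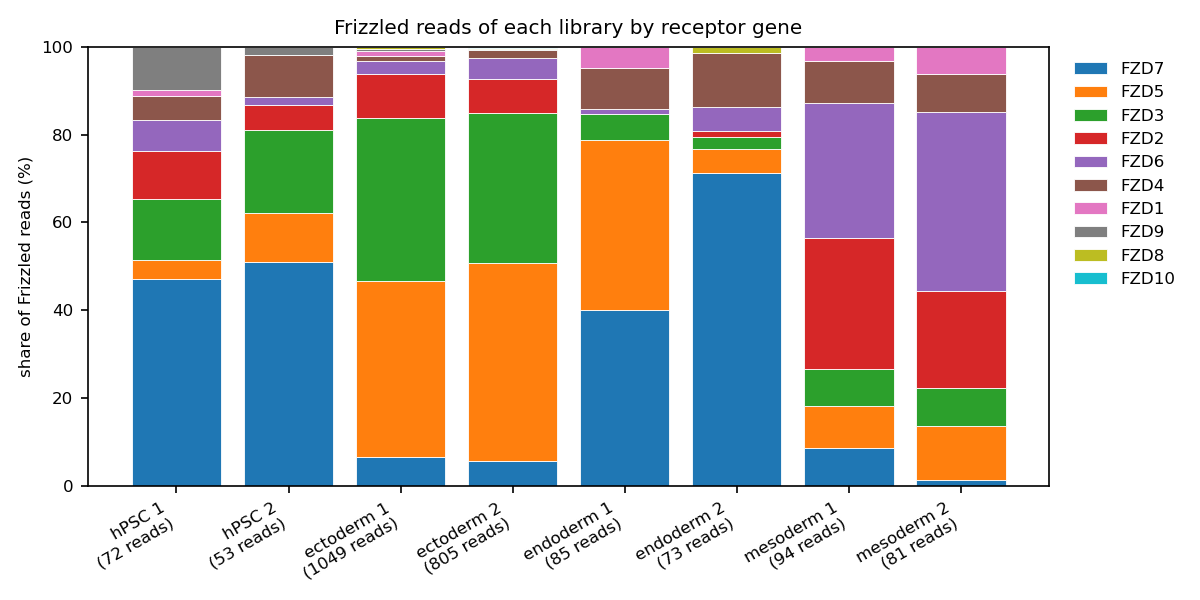
Share of each library's Frizzled reads (vertical axis, percent) by receptor gene, with the number of Frizzled reads under each bar. FZD7 is the largest part in hPSC, FZD5 and FZD3 in ectoderm, and FZD6 and FZD2 in mesoderm, while the endoderm repeats differ in FZD5.

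Set side by side as shares of all reads on FZD1 to FZD10, the receptor make-up of the groups differed. FZD7 held 47.2% (35.3 to 59.3) and 50.9% (36.8 to 64.9) of Frizzled reads in the hPSC repeats. In ectoderm FZD5 held 40.1% and 45.1% and FZD3 37.1% and 34.2%, with FZD7 at 6.58% and 5.71%. In endoderm FZD7 held 40% and 71.2% and FZD5 38.8% and 5.48%. In mesoderm FZD6, a receptor that takes part in planar polarity, held 30.9% and 40.7%, and FZD2 held 29.8% and 22.2%. Divided by transcript length, FZD5 was still the largest in ectoderm (40.6% and 45.8%), while FZD3 came to 19.7% and 18.2% and FZD2 to 18.7% and 14.6%. All Frizzled reads together made 888 and 832 CPM in ectoderm and between 94.3 and 177 CPM in the other 6 libraries. Only 53 to 94 Frizzled reads lie behind each share outside ectoderm.

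The ectoderm libraries held longer transcripts than the others, and 3 of the 4 genes that rose there have transcripts longer than 5000 nt on average: FZD5 at 7051 nt, LRP6 at 9872 nt and FZD3 at 13426 nt. The remaining one, FZD2, is at 3849 nt. With the length trend of each library removed, the ectoderm log2 fold change was 2.31 for FZD2, 4.08 for FZD5, 1.44 for LRP6 (adjusted p = 0.00519) and 2.23 for FZD3 (adjusted p = 0.000299). All 4 calls against hPSC were kept, at smaller sizes. Against endoderm the ectoderm difference went from 2.78 to 1.67 for FZD5 and from 4.89 to 3.18 for FZD3. It went from 3.94 to 2.49 for LRP6 and from 5.55 to 5.26 for FZD2, and these calls were kept too. The part of transcript length in these rises was not tested.

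**Figure D4:**
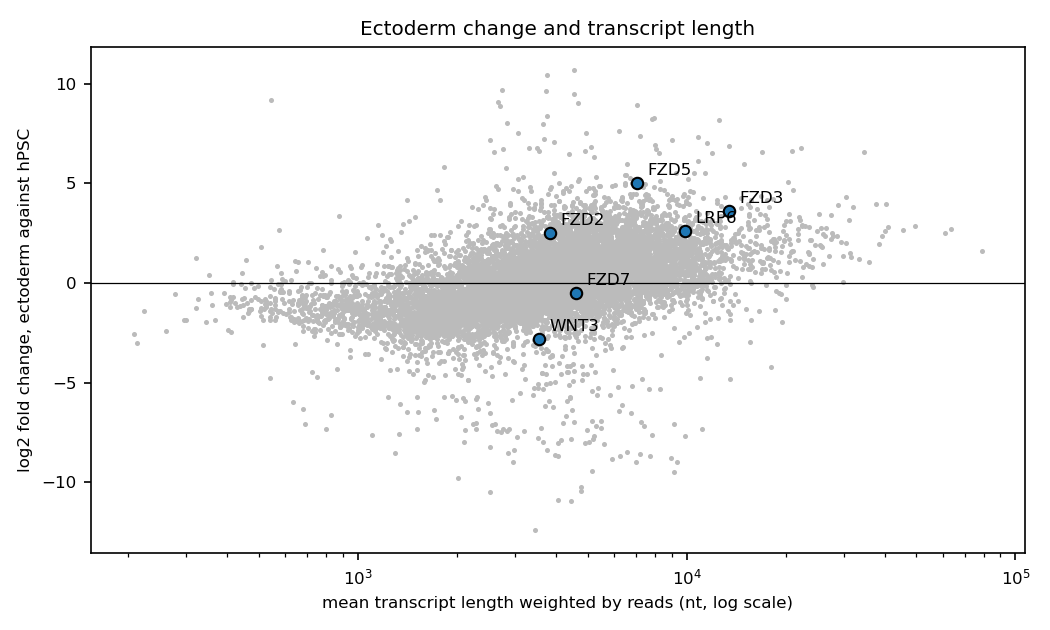
Fitted log2 fold change of ectoderm against hPSC (vertical axis) by mean transcript length weighted by reads (horizontal log axis, nt), for all 10840 tested genes (grey) and 6 named genes (blue). The grey cloud rises with length, FZD5 lies at 5.00, FZD3 at 3.61, LRP6 at 2.60 and FZD2 at 2.50, and other genes lie above each of them.

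Scaling matters for reading the levels above. The fits use TMM factors, while CPM use library totals. With library totals alone, an alternative chosen after seeing the data, the median log2 fold change of all tested genes moved by 0.45 in ectoderm, −0.35 in endoderm and 0.25 in mesoderm against hPSC. The direction of none of the 7 tested members changed under it in any comparison. In endoderm FZD2, FZD3 and LRP6 then passed as lower than hPSC (adjusted p = 0.0387, 0.0335 and 0.0417), FZD5 no longer passed (adjusted p = 0.0905), and WNT3 no longer passed as lower in mesoderm (adjusted p = 0.0742). FZD7 no longer passed as lower in ectoderm than in endoderm (−0.41, adjusted p = 0.381).

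Genes that act around these ligands and receptors were taken from lists of the pathway. Of the 2 genes of WNT secretion, WLS, the carrier that escorts WNT proteins to the surface, was at 311 and 203 CPM in endoderm and 243 and 327 CPM in mesoderm, against 3.85 and 1.78 CPM in hPSC and 11 and 10.3 CPM in ectoderm. It rose by 6.78 ± 0.51 log2 units in endoderm (adjusted p = 5.51e-07) and 6.37 ± 0.52 in mesoderm (adjusted p = 3.16e-07). PORCN, the enzyme that attaches the lipid to WNT proteins, was at 268 and 179 CPM in endoderm, 25 and 30.2 CPM in hPSC, 8.47 and 9.31 CPM in ectoderm, and 9.41 and 1.98 CPM in mesoderm. It rose by 3.32 ± 0.38 in endoderm (adjusted p = 1.66e-05), fell by 2.05 in ectoderm (adjusted p = 0.00288) and fell by 2.46 in mesoderm (adjusted p = 0.0053). Endoderm, the layer with WNT3 reads, was high in both, and mesoderm, the layer with WNT6 reads, in WLS alone.

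**Figure D5:**
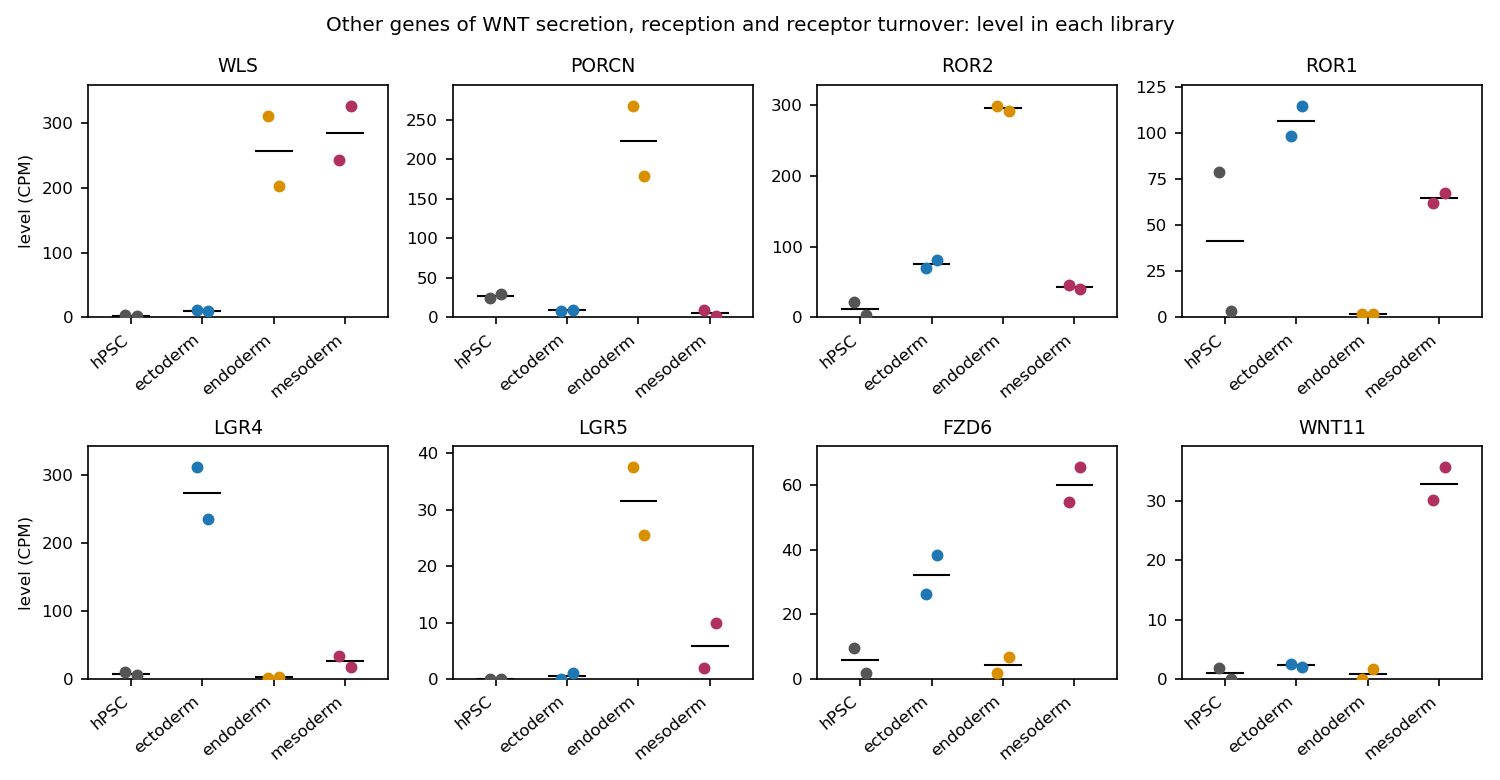
Level in CPM (vertical axis, from 0, own scale per panel) of 8 other pathway genes in each of the 8 libraries (points), with the group mean as a bar. WLS is high in endoderm and mesoderm, PORCN, ROR2 and LGR5 in endoderm, LGR4 in ectoderm, and FZD6 and WNT11 in mesoderm.

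Of 15 other ligands, 11 had reads and 1 was tested: WNT11 had 16 and 18 reads in mesoderm and at most 3 in any other library, and was higher in mesoderm than in hPSC (adjusted p = 0.000614). Among the 5 other Frizzled genes FZD6 alone was tested. It rose by 2.07 ± 0.59 log2 units in ectoderm (adjusted p = 0.00934) and by 3.17 ± 0.57 in mesoderm (adjusted p = 0.000569). Of 5 other co-receptors, all tested, 2 were higher in ectoderm, 1 higher and 1 lower in endoderm, and 3 higher in mesoderm. Of all genes 23.8% were higher in ectoderm, 13.5% higher and 13.8% lower in endoderm, and 16.9% higher in mesoderm. The co-receptors had a median log2 fold change of 1.00, 0.58 and 1.07 beside −0.01, −0.13 and 0.01 over all genes. ROR2, a receptor of WNT5A, was at 299 and 292 CPM in endoderm against 21.2 and 3.56 CPM in hPSC (4.95 ± 0.45, adjusted p = 2.16e-06). ROR1, its relative, had 1 read in each endoderm library and fell by 4.06 log2 units against hPSC (adjusted p = 0.0126), although the hPSC repeats themselves were at 79.0 and 3.56 CPM. LRP5, the relative of LRP6, rose by 0.97 ± 0.37 in ectoderm (adjusted p = 0.0411) and 1.07 ± 0.39 in mesoderm (adjusted p = 0.0437).

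Of 9 genes that set receptor turnover, 3 were tested. LGR4, an R-spondin receptor that spares Frizzled from degradation, was at 312 and 236 CPM in ectoderm and 9.63 and 5.34 CPM in hPSC, a rise of 4.76 ± 0.44 (adjusted p = 1.51e-06). LGR5, its paralogue, had 22 and 15 reads in endoderm and 0 in both hPSC libraries (adjusted p = 0.00034). RNF43, a ligase that removes Frizzled from the surface, rose by 2.04 ± 0.54 in mesoderm (adjusted p = 0.00832).

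Of 13 genes of the intracellular relay 11 were tested: 1 was higher in ectoderm (APC, a scaffold of the β-catenin destruction complex, 2.08 ± 0.50, adjusted p = 0.00319), 1 higher and 1 lower in endoderm (AXIN1 and CSNK1A1), and 1 higher in mesoderm (DVL3, a Dishevelled, 1.63 ± 0.46, adjusted p = 0.0123). DVL3 was at 162 and 167 CPM in mesoderm, but the hPSC repeats themselves were at 82.8 and 12.5 CPM. The median log2 fold change of the relay genes was 0.03, 0.12 and 0.45 in the 3 layers. Of 9 planar polarity genes, all tested, 3 were higher and 1 lower in ectoderm, 5 higher and 0 lower in endoderm, and 2 higher and 2 lower in mesoderm, with medians of 0.63, 1.44 and 0.45. The shares of all genes called are 23.8% and 24.8%, 13.5% and 13.8%, and 16.9% and 18.2%. VANGL2, a core membrane protein of that pathway, rose by 1.44 ± 0.36 in endoderm (adjusted p = 0.00764).

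Of 7 usual targets of β-catenin signalling 4 were tested. LEF1, itself a TCF/LEF factor, had 27 and 24 reads in ectoderm and 14 and 16 in mesoderm, and 0 in the 4 hPSC and endoderm libraries (adjusted p = 0.000612 and 0.000456 against hPSC). AXIN2, a feedback inhibitor, was at 25.6 and 27.3 CPM in endoderm and 9.63 and 10.7 CPM in hPSC, a rise of 1.70 ± 0.51 (adjusted p = 0.022). DKK1, a secreted antagonist that binds LRP6, had 22 and 25 reads in endoderm and at most 1 in any other library (adjusted p = 0.000109 against hPSC). The endoderm medium held WNT3A and the ectoderm medium PNU-74654, and the part of either in these levels was not tested.

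The tested gene whose log2 CPM followed a member most closely over the 8 libraries (Pearson's r, a description over 4 groups of 2) was TOE1 for WNT3 (r = 0.993), TRIM55 for WNT6 (r = 1.00), NLK for FZD2 (r = 0.996), ADGRL3 for FZD3 (r = 0.991), ZFP64 for FZD7 (r = 0.984) and CTDSPL2 for LRP6 (r = 0.994). TRIM55, like WNT6, had reads in mesoderm alone (216 and 243). ADGRL3 had 55 reads in each ectoderm library and at most 5 in any other.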

How the data were processed

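The authors deposited raw read counts per assembled transcript. The deposited endoderm columns hold whole numbers as well and entered the check of units under the heading of expected counts, with no rounding needed. The submitters' processing notes name minimap2 and StringTie with GRCh38 (hg38). Versions, the counter, the annotation release and the strand setting are not given in the sources used here, so a gene and its antisense partner may share reads. The authors deposited transcript positions as well, from which 9847 transcripts placed by position only were left out of gene sums.

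Counts were summed per gene and scaled to CPM by the library total. Genes passing edgeR's filterByExpr (minimum count 10) were fitted over all 8 libraries (edgeR 4.0.16, R 4.3.3, TMM factors, quasi-likelihood test), with p-values adjusted over all 10840 genes. At a common coefficient of variation of 0.212 and 2 libraries a group, small differences are not resolved. A floor is the level of 3 counts, the larger one of the 2 libraries at 0. Alternatives included DESeq2 1.42.0, other scalings and filters, and leaving out libraries. The scripts were tested on simulated counts. Members and lists were chosen with earlier results of these data known. Named beside the members were, per list, up to 4 genes called in a layer, by mean level, and the gene most alike to each member; some items under these rules are not reported here.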

Additional observations from a re-analysis of the deposited data

Results flagged for a closer look

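Groups of 2 libraries are too small for a test of single outlying samples. Reads were found at 3 loci that the count table lists under WNT5B by position alone and that carry no gene name in the assembly, and 2 of them had more than 3 reads in a library. A single-exon transcript inside a WNT5B intron at chromosome 12, 1543168 to 1549907, had 8 reads in ectoderm repeat 2, 3 in ectoderm repeat 1, 1 and 3 in hPSC, 0 and 1 in endoderm, and 1 and 1 in mesoderm. Another at 1558025 to 1561400, on the opposite strand, had 4 reads in ectoderm repeat 2, 2 in ectoderm repeat 1, 3 and 0 in hPSC, 0 and 1 in endoderm, and 0 and 1 in mesoderm. The third, at 1535590 to 1542164, had 0 and 3 reads in ectoderm, 1 and 2 in endoderm, and 0 in hPSC and mesoderm. The first 2 were singled out because their highest counts exceeded 3 reads and the hPSC counts. The ectoderm libraries, where those counts lie, were the deepest.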

How the results depend on the processing

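With 2 libraries a group, counts of called genes moved with the test and with single libraries. DESeq2 called 3352 genes for ectoderm, 1837 for endoderm and 2320 for mesoderm against hPSC, and 2017 for ectoderm against mesoderm, where edgeR called 5275, 2951, 3808 and 3842. A fit of only mesoderm and hPSC called 2465. Leaving out 1 library gave 3290 to 5968 for ectoderm, 1461 to 4094 for endoderm and 2006 to 5088 for mesoderm against hPSC, 1772 to 2342 for ectoderm against mesoderm, and 3400 to 3768 for endoderm against mesoderm (5110 with all). A left-out group then has a lone library, assumed to vary like the others. Transcript choice calls (154, 131 and 184 genes in ectoderm, endoderm and mesoderm against hPSC) ranged over 12 to 308, 27 to 246 and 36 to 317. Same-numbered repeats showed little shared deviation (r from −0.0344 to 0.15, the highest for hPSC and endoderm). This cannot decide whether the repeat numbers pair, which the labels do not say. With the replicate block transcript choice in ectoderm gave 101 calls, and FZD2 passed as lower in endoderm than in hPSC (adjusted p = 0.0443).

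Values that changed sign had not passed the test. LRP6 in mesoderm against hPSC was −0.30 with the length trend removed, −0.38 with reference transcripts only, and −0.13 to 0.66 with 1 library left out. FZD3 in endoderm against mesoderm was 0.20 with the length trend removed. FZD5 in endoderm against mesoderm ranged over −0.79 to 2.16, and WNT3 in ectoderm against mesoderm over −2.39 to 2.94. FZD3 transcript choice was −0.013 in endoderm at a minimum count of 3, and ranged over −1.52 to 0.19 in endoderm and −0.14 to 0.53 in mesoderm. The causes were not tested.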
